A study of Sinonovacula constricta with 18 samples.

Results

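The gill and the labial palp of the razor clam Sinonovacula constricta were compared with RNA-seq libraries, 3 per organ, which are 6 of the 18 libraries of 6 organs in the series. The libraries were chosen by their tissue label alone (the labial palp libraries carry the title lips). Every library came from healthy adult clams and pooled 3 individuals, and no treatment was applied to either organ. Each library gives the reads of the same 32250 isoform clusters, which are transcript models whose names carry the tag of the isoform clustering used for Pacific Biosciences long reads. Of these, 28590 had at least 10 reads summed over the 6 libraries and were analysed. The files do not pair the clusters with gene names, so no cluster is given a function here, the tissue labels could not be checked against marker genes, and only 4 cluster names are printed.

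In bivalves the gill is a curtain of ciliated filaments that drives the water current, traps food particles in mucus and exchanges gases. The labial palps are ciliated flaps on either side of the mouth that take particle strings from the gill, sort them, and pass them to the mouth or reject them. Both surfaces carry motile cilia, which are built on microtubules and bent by dynein motors, and cells that secrete mucus.

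Estimated reads summed to between 11343855 and 11796712 per gill library and between 10677055 and 11532787 per labial palp library. At least 1 read fell on 26956, 25481 and 25578 clusters in gill replicates 1, 2 and 3 and on 26845, 25293 and 25440 clusters in labial palp replicates 1, 2 and 3. Both organs therefore had most clusters detected under number 1. The organ means differed by 146 clusters, less than the spread between libraries (exact permutation test, 2-sided p = 0.5, where 3 against 3 cannot go below 0.1). That test ignored the numbers, and under each number the gill had the higher count. The gill also had the higher read total under numbers 2 and 3, but not under number 1. The share of the totals in these counts was not tested. The 100 most abundant clusters held 18.5% ± 1.97 (SD, n = 3) of the reads in the gill and 18.7% ± 1.90 (SD, n = 3) in the labial palp. The same test did not separate the organs by this share (exact permutation test, 2-sided p = 0.8).

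Under numbers 1 and 2 the replicate number set the profiles apart more than the organ did, which did not hold for number 3. On log2(CPM + 1), where CPM is reads scaled to a common library total, gill and labial palp correlated across the 28590 clusters at a Pearson r of 0.908 within number 1, 0.937 within number 2 and 0.740 within number 3. Libraries of the same organ with different numbers correlated at 0.694 to 0.779, and libraries that differed in both organ and number at 0.656 to 0.748. Of the sum of squares over the clusters, 15.4% lay between the organs, 68.6% between the numbers, and 16% in neither. Without number 3 the shares were 15%, 79.1% and 5.93%. Clusters are not independent replicates, and all of these libraries share the same clusters, so the values are descriptions. The labels do not say whether libraries of one number share animals, a preparation or a sequencing run.

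**Figure D1:**
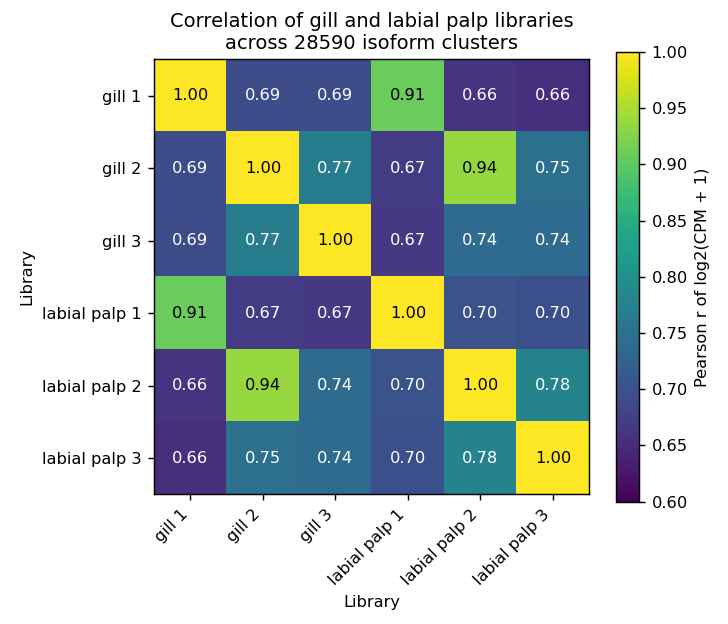
Pearson correlation of log2(CPM + 1) between the 3 gill and 3 labial palp libraries (both axes) across 28590 isoform clusters, with the value printed in each square. The squares joining gill and labial palp of number 1 (0.91) and number 2 (0.94) are the highest off the diagonal, while that of number 3 is at 0.74.

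The libraries of number 3 stood apart in this pairing. Their r of 0.740 with each other was under that of gill replicates 2 and 3 (0.770) and of labial palp replicates 2 and 3 (0.779). It was no higher than for gill replicate 2 with labial palp replicate 3 (0.748) or gill replicate 3 with labial palp replicate 2 (0.740). The profile closest to gill replicate 3 among the 17 other libraries of the series was that of siphon replicate 3, at an r of 0.825, followed by foot replicate 3, at 0.795, whereas labial palp replicate 3 was closest to intestine replicate 3, at 0.865. For numbers 1 and 2 the gill and the labial palp were each other's closest library. Deviations from the organ means correlated between gill and labial palp at 0.755 for number 1, 0.721 for number 2 and 0.330 for number 3. Since each organ has 3 libraries centred on their mean, the value for number 3 is partly fixed by the other two and does not show that these libraries are a pair. Results are therefore also given without number 3.

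Averaged over the libraries, the gill and labial palp profiles correlated at an r of 0.908, or 0.930 without number 3. Among the 15 pairs of organs in the series only siphon and foot, at 0.944, were closer, and the next pair, labial palp and intestine, was at 0.862. This ranking, like the closest libraries above, used the 28590 clusters kept by their reads in gill and labial palp alone. Clusters found only in other organs are thus left out of it. These averages include the number effect. Within numbers the gill and labial palp pair ranked second of 15 in number 1, first in number 2 and seventh in number 3.

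Most of the RNA pool lay in clusters at a similar level in both organs. Within number 1, 81.9% of the clusters differed by less than 2-fold, and these held 83.8% of the gill reads and 84.3% of the labial palp reads. In number 2 the share was 84.1% and in number 3 it was 64.7%. A difference of less than 2-fold under all 3 numbers was found for 14778 clusters (51.7%), which held 54.8% to 58.4% of the reads of each library, and under numbers 1 and 2 alone for 20901 (73.1%). The differences between the organs varied from number to number. The log2 ratio of gill to labial palp correlated across clusters at an r of 0.384 between numbers 1 and 2, 0.203 between 1 and 3, and 0.209 between 2 and 3. At least a 2-fold difference under all 3 numbers was seen for 651 clusters toward the gill and 486 toward the labial palp, at least 8-fold for 64 and 48, and at least 32-fold for 9 and 15.

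The most abundant clusters were largely common to both organs. Of the 100 with the highest mean FPKM (fragments scaled by transcript length and library total), 76 were in the leading 100 of both organs, and 81 without number 3. The first cluster was the same in both, with an FPKM of 8054, 8969 and 7409 in gill replicates 1, 2 and 3 and of 7306, 10405 and 8458 in labial palp replicates 1, 2 and 3, so the organs overlapped. The leading 20 of either organ made up 26 clusters. Of these, 23 were within 2-fold between the organs under number 1, 24 under number 2, 16 under number 3 and 15 under all 3.

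Several of these 26 clusters varied widely between numbers within an organ, and some of those were also far apart between the organs under number 3. More than a 10-fold range (FPKM + 0.1) was seen among the gill libraries for 8 of them and among the labial palp libraries for 6, which were all among the 8. One cluster had an FPKM of 0.34, 4317 and 2491 in gill replicates 1, 2 and 3 and of 0.86, 6878 and 6027 in labial palp replicates 1, 2 and 3, and was thus near 0 in both organs under number 1. Another was at 0, 4818 and 5935 in the gill and at 0, 5941 and 0 in the labial palp. It was listed at 0 in both organs under number 1, was high in both under number 2, and was high in the gill alone under number 3. One more was at 2156, 4223 and 22.4 in the gill and at 2234, 5087 and 8320 in the labial palp, so that the organs were far apart under number 3 alone. None of the 26 was among the clusters called on 6 or on 15 libraries (edgeR), of which the counts follow. Those fits called 0% and 1.86% of all clusters tested. The fit on 15 libraries called 4.47% of those with a mean FPKM of 100 and above in the 2 organs. At such shares few or none of 26 would be called, so nothing is read from this count.

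Cluster by cluster, the test with the replicate number as a block called 0 of 28590 clusters at an adjusted p under 0.05 (0% called, quasi-likelihood test of edgeR, Benjamini-Hochberg), and the lowest adjusted p was 0.166. At an unadjusted p under 0.05 it listed 3262 clusters (11.4%), of which 1728 (6.04%) were higher in the gill and 1534 (5.37%) in the labial palp. The common biological coefficient of variation was 0.617 with the block and 1.04 without it. Without the block 14 clusters were called (0.049%), 5 higher in the gill (0.0175%) and 9 higher in the labial palp (0.0315%). DESeq2 with the block called 3277 of the 25818 clusters to which it gave an adjusted p (12.7%), 1888 higher in the gill (7.31%) and 1389 higher in the labial palp (5.38%). On the same libraries limma called 3 on log2(FPKM + 0.1) and 28 on log2(FPKM + 1). The count of differing clusters thus depended on the tool and on the block. Since each organ was sampled as a mixture of cell types, fewer cells of a type and less RNA per cell cannot be told apart in any of these differences, and the p-values measure the spread between pools only.

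The same edgeR test was also run over the 15 libraries of siphon, gill, intestine, labial palp and foot, with the number as a block. Both the spread and the number effect were then estimated over all 15, and 533 clusters were called (1.86%). Of these, 299 were higher in the gill (1.05%) and 234 were higher in the labial palp (0.818%). All 14 clusters called without the block were among them, and 525 of the 533 were also called in the same direction by DESeq2 on the 6 libraries. DESeq2 called 12.7% of the clusters to which it gave an adjusted p. These fits share the gill and labial palp libraries and the contrast, so the overlaps are not independent support. With number 3 divided by the sets seen above (siphon, gill and foot against intestine and labial palp) 536 clusters were called, of which 418 were among the 533. With both number 3 libraries of the compared organs left out, 121 clusters were called, 115 of them among the 533. Without gill replicate 1, 2 or 3 the count was 245, 287 or 265, and without labial palp replicate 1, 2 or 3 it was 221, 230 or 229, so the count fell by more than 1.5 times whichever of the 6 was left out.

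**Figure D2:**
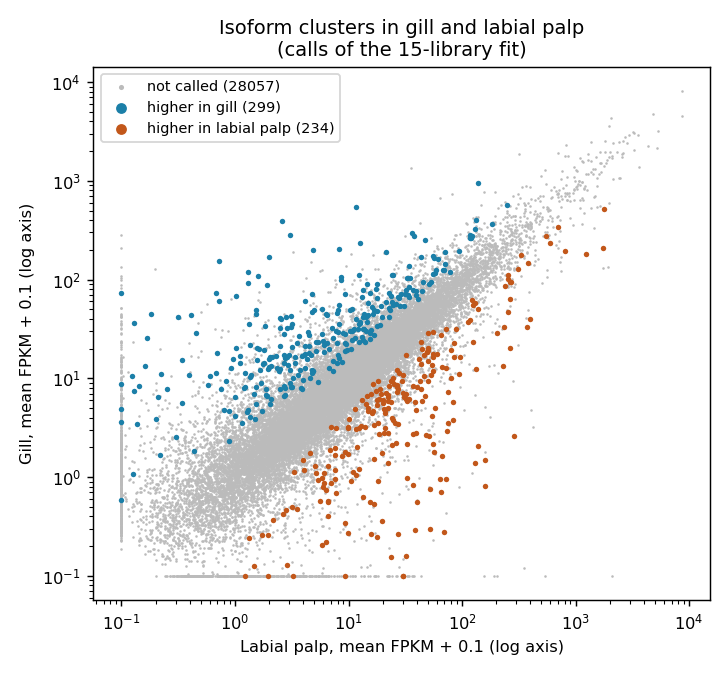
Mean FPKM + 0.1 of 28590 isoform clusters in the labial palp (horizontal, log axis) and in the gill (vertical, log axis), n = 3 libraries each, with the 299 clusters called higher in the gill and the 234 called higher in the labial palp in the 15-library fit in colour. Called clusters lie on both sides of the diagonal over most of the range of levels, and the most abundant clusters at the upper right are grey.

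The clusters called in each direction had similar median differences and levels. Those higher in the gill had a median log2 difference of 2.18, with quartiles of 1.43 and 3.40, and a median FPKM of 27.9 in the gill against 4.73 in the labial palp. Those higher in the labial palp had a median log2 difference of 2.37, with quartiles of 1.57 and 3.58, and a median FPKM of 26.7 against 4.62 in the gill. Over all clusters tested the median log2 difference of gill minus labial palp was 0.01, and the median FPKM was 7.27 in the gill and 7.52 in the labial palp. At least an 8-fold difference was fitted for 94 of the 299 and for 79 of the 234.

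All pairs of libraries carried these differences in almost the same measure, including number 3. The median log2 ratio of the 299 was 1.82, 1.92 and 1.96 under numbers 1, 2 and 3, and 297 of them were higher in the gill under all 3 numbers. For the 234 the medians were -2.23, -1.95 and -2.16, and 232 were higher in the labial palp under all 3. The same measure chose the clusters, so these values describe them and test nothing. Every gill library exceeded every labial palp library for 276 of the 299, where 6.86% of all clusters tested did so, and the reverse held for 225 of the 234, where the background was 8.17%.

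**Figure D3:**
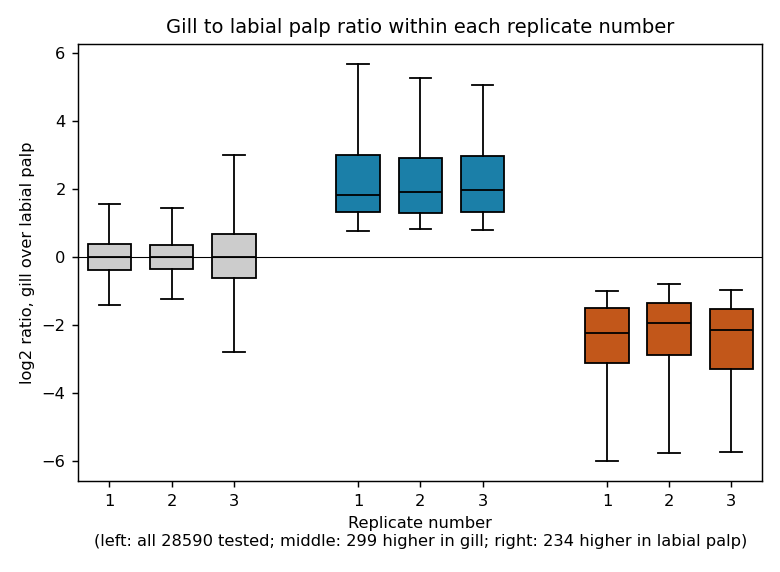
Log2 ratio of gill to labial palp (vertical) within replicate numbers 1, 2 and 3 (horizontal) for all 28590 clusters, the 299 called higher in the gill and the 234 called higher in the labial palp in the 15-library fit. Boxes span the quartiles with the median as a line, and whiskers reach the 5th and 95th percentiles; the spread of all clusters is widest under number 3, while the medians of the called clusters lie between 1.82 and 1.96 and between -2.23 and -1.95.

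The called clusters carried a small part of the RNA pool. The 299 held 2.86%, 2.73% and 2.60% of the reads in gill replicates 1, 2 and 3 and 0.737%, 0.717% and 0.683% in labial palp replicates 1, 2 and 3. The 234 held 2.51%, 2.22% and 2.61% in the labial palp and 0.572%, 0.583% and 0.574% in the gill. In the siphon, the foot, the mantle and the intestine the 299 held 1.93% to 2.21%, 1.88% to 2.0%, 1.40% to 1.48% and 0.964% to 0.993% of the reads, and the 234 held 1.47% to 1.59%, 1.04% to 1.55%, 0.953% to 1.57% and 1.15% to 1.30%, so for both sets these organs lay between the gill and the labial palp. Neither share overlapped between gill and labial palp, which the choice of the clusters fixes. That choice also makes an intermediate place of the other organs likely, so nothing is read from it. Calls were more frequent at higher levels, from 0.299% of the clusters with a mean FPKM under 1 in the 2 organs to 1.20% between 1 and 10, 2.83% between 10 and 100, and 4.47% at 100 and above. The length given in the cluster name had a median of 2284 bases for the 299, 2270 for the 234 and 2168 for all tested.

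The called clusters also had reads in the other 4 organs. Of these, the siphon, the intestine and the foot entered the 15-library fit. There they helped to set the number effect and the spread, so the fitted differences and the calls depend on them too. Among the 299 the gill was the organ with the highest mean FPKM for 193 (64.5%), the intestine for 33, the siphon for 28, the mantle for 25 and the foot for 20. Their median FPKM there ran from 4.24 (intestine) over 5.72 (foot) and 7.96 (mantle) to 8.30 (siphon). Among the 234 the labial palp was highest for 143 (61.1%), the intestine for 35, the siphon for 24, the mantle for 20 and the foot for 12. Their median FPKM was 8.55 in the intestine, 6.12 in the mantle, 5.23 in the foot and 4.65 in the siphon. The 299 and the 234 were chosen by their difference between gill and labial palp. That choice by itself raises the 64.5% and the 61.1% above the shares over all clusters tested. All clusters tested were kept by their reads in gill and labial palp alone, which leaves out clusters found only in other organs. Among them the gill was highest for 22.2%, the labial palp for 24.9% and the intestine for 24.2%. The intestine also led the other 4 organs there, with a median FPKM of 6.39 against 5.03 in the mantle. Some transcript models are listed as several clusters, and 16 such models had more than 1 called cluster. All called clusters of a model went the same way, higher in the gill for 6 models and higher in the labial palp for 10.

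The most abundant cluster called higher in the gill, i1_ICE_sample8a197f|c11158/1/1861.1, had an FPKM of 1364, 672 and 797 in gill replicates 1, 2 and 3. It was at 187, 113 and 112 in labial palp replicates 1, 2 and 3, so every gill library was above every labial palp library. Its log2 ratio was 2.87, 2.59 and 2.93 under numbers 1, 2 and 3, a mean of 2.80 ± 0.183 (SD, n = 3 numbers). The ratio was thus similar under each number, although the level in the gill varied about 2-fold between libraries. A fit with the number as a block favours clusters with a steady ratio, so this describes the cluster and tests nothing. The fitted log2 difference was 2.80 with an adjusted p of 0.184 on 6 libraries and 2.83 (standard error 0.436) with an adjusted p of 0.0104 on 15 (edgeR). It was not restricted to the gill. Siphon libraries averaged 1227 ± 344 and mantle libraries 1001 ± 467, against 11.3 ± 3.37 for the foot and 1.42 ± 0.843 for the intestine (FPKM, SD, n = 3 each). Over its 19 alternatives the adjusted p ran from 5.12e-90 to 0.806. It passed the threshold in 4 of them, each a DESeq2 fit or the 15-library fit.

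The most abundant cluster called higher in the labial palp, i1_ICE_sample8a197f|c40667/1/1628.2, had an FPKM of 2065, 1365 and 1902 in labial palp replicates 1, 2 and 3 and of 739, 499.9 and 316 in gill replicates 1, 2 and 3. The organs did not overlap. Its log2 ratio of gill to labial palp was -1.50, -1.44 and -2.44 under numbers 1, 2 and 3, a mean of -1.79 ± 0.557 (SD, n = 3 numbers). The fitted log2 difference was -1.79 with an adjusted p of 0.274 on 6 libraries and -1.76 (standard error 0.360) with an adjusted p of 0.0407 on 15 (edgeR). Its 19 alternatives gave an adjusted p from 1.15e-53 to 0.806, and 4 of them passed the threshold. Intestine libraries averaged 501 ± 158, near the gill at 518 ± 212, while mantle libraries averaged 141 ± 6.15, foot libraries 4.04 ± 3.58 and siphon libraries 1.20 ± 0.950 (FPKM, SD, n = 3 each). Outside the compared organs the intestine and the siphon thus stood in opposite order for these 2 clusters.

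On/off clusters were few. A cluster was taken as on with at least 10 reads in each of the 3 libraries of an organ and as off with 0 reads in each of the 3 libraries of the other. By this rule 16 clusters (0.056% of those tested) were on in the gill and off in the labial palp, and 10 (0.035%) were on in the labial palp and off in the gill. Gill and labial palp had the fewest on/off clusters among the 15 pairs of organs, 26 in all against 38 for siphon and foot and 282 for intestine and foot. The rule takes reads unscaled, so library totals enter this ranking. Totals ran from 1.47e+07 to 1.80e+07 in the siphon and from 1.49e+07 to 1.74e+07 in the foot. They ran from 1.09e+07 to 1.21e+07 in the mantle and from 9.98e+06 to 1.05e+07 in the intestine. Within a single number far more clusters met the rule, 578 and 511 under number 1, 471 and 403 under number 2, and 1404 and 1275 under number 3, for gill and labial palp in that order. Between libraries of the same organ the corresponding counts were 899 to 2207. Without number 3 the rule gave 54 and 32 clusters. Without gill replicate 1, 2 or 3 the gill count was 39, 54 or 26, and without labial palp replicate 1, 2 or 3 it was 55, 41 or 29. The labial palp count was 36, 40 or 16 without gill replicate 1, 2 or 3, and 27, 29 or 21 without labial palp replicate 1, 2 or 3.

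Reads of the 16 gill clusters ranged from 10 to 5561 per gill library, with a median FPKM of 4.32. Against a floor of 3 reads per labial palp library, their level in the gill was at least 3.50-fold to 588-fold higher, with a median bound of 21.7-fold. The 10 labial palp clusters had 10 to 995 reads per labial palp library and a median FPKM of 3.97, and were at least 5.40-fold to 191-fold higher, with a median bound of 13.4-fold. Floors cover counting error only. None of the 26 passed the threshold on 6 libraries (edgeR). On 15 libraries 3 of the 16 and 3 of the 10 did, where 1.86% of all clusters were called. DESeq2 on 6 libraries called 13 of the 16 and 8 of the 10, where it called 12.7% of all clusters. The on/off rule chose these clusters by the same contrast, so nothing is read from these counts. It gave no adjusted p to the remaining 3 and 2.

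**Figure D4:**
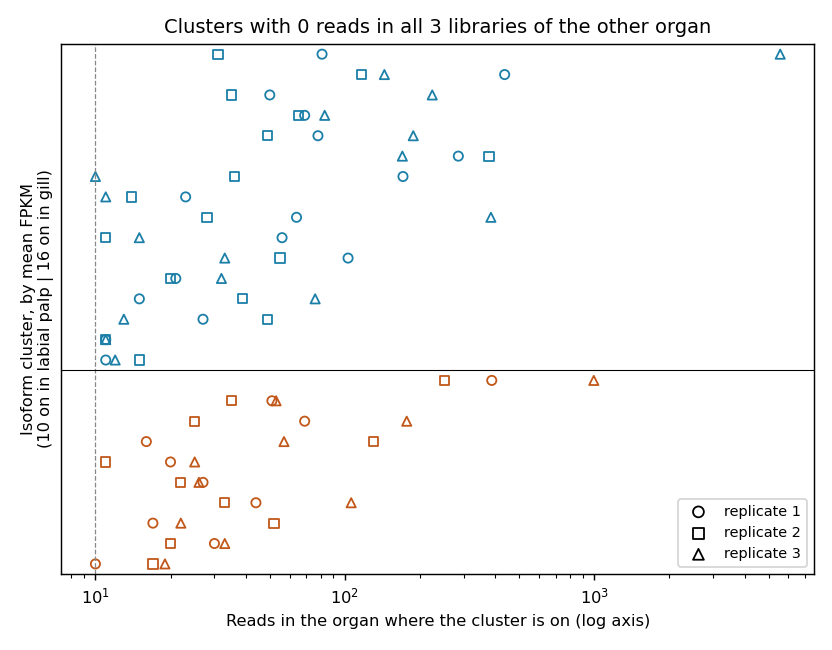
Reads (horizontal, log axis) in replicates 1, 2 and 3 of the organ where each on/off cluster is on, for the 16 clusters on in the gill (upper rows) and the 10 on in the labial palp (lower rows), ordered by mean FPKM. Every cluster has 0 reads in the 3 libraries of the other organ, the dashed line marks 10 reads, and gill replicate 3 of the first cluster lies highest, at 5561 reads.

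Being off in one of the 2 organs did not mean that a cluster was particular to the other. The gill was the organ with the highest mean FPKM for 11 of the 16 and the labial palp for 6 of the 10. At least 10 reads in all 3 libraries were also found in the siphon for 5 of the 16, in the foot for 4, in the mantle for 4 and in the intestine for 0. Of the 10 labial palp clusters 4 were on by this measure in the foot and 3 in the siphon, with the intestine and the mantle at 2 each. Only 2 of the 16 and 0 of the 10 were under 10 reads in every library of the other 4 organs.

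The most abundant on/off cluster of the gill, i3_ICE_sample8a197f|c3446/1/3554, had 81, 31 and 5561 reads in gill replicates 1, 2 and 3 and 0 in every labial palp library. Gill replicate 3 was far above the other two, and the bound of 588-fold fell to 18-fold without it. This cluster passed no threshold in either edgeR fit, with an adjusted p of 0.278 on 6 and on 15 libraries, while DESeq2 gave 0.0401. The range over its 18 alternatives was 0.000994 to 0.904, and 2 of them passed, each a DESeq2 fit. Number 3 was also its highest in the siphon, at an FPKM of 0.89, 0 and 87.6 in replicates 1, 2 and 3, and in the foot, at 0.62, 13.3 and 49.5, but not in the mantle, at 149, 12.8 and 43.3.

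The corresponding labial palp cluster, i1_ICE_sample8a197f|c64246/1/1845, had 388, 250 and 995 reads in labial palp replicates 1, 2 and 3 and 0 in every gill library. It was at least 191-fold higher in the labial palp, or 109-fold without labial palp replicate 3. It was called on 15 libraries with an adjusted p of 0.0127, but not on 6, where the adjusted p was 0.278 (edgeR). Its 19 alternatives ran from 4.83e-17 to 0.806, and 3 of them passed. The foot, with an FPKM of 65.5, 46.8 and 59.8, and the siphon, with 15.9, 64.7 and 63.0, had levels as high as the labial palp, with 20.2, 14.1 and 55.8. In the mantle it was at 0, 0 and 18.3 and in the intestine at 0, 0.45 and 1.73.

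**Figure D5:**
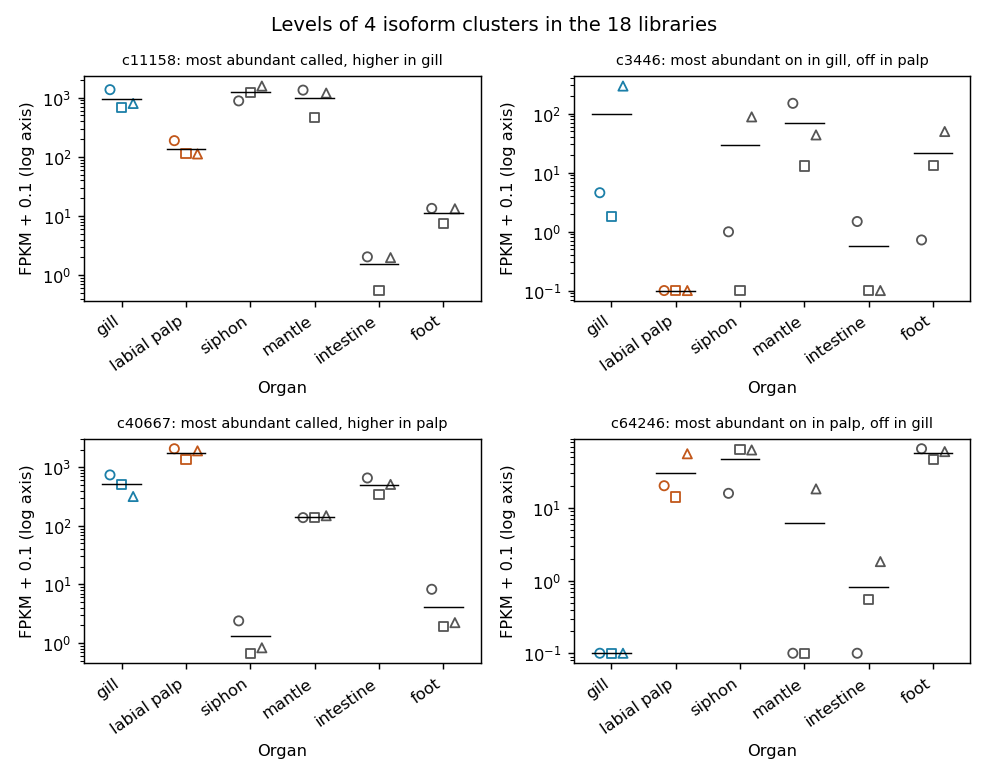
FPKM + 0.1 (vertical, log axis) in each of the 3 libraries of the 6 organs (horizontal) for the 4 named clusters, with the organ mean as a line and the replicate number as circle (1), square (2) or triangle (3). The gill is above the labial palp for c11158 and c3446 and under it for c40667 and c64246, and the siphon is at or above the higher organ for c11158 and c64246.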

How the data were processed

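RNA was extracted from pools of 3 individuals and prepared with an Illumina library kit, whereas the design text gives Pacific Biosciences sequencing. Per the submitters' processing notes Bowtie2, RSEM and DESeq 1.10.1 were used, with no roles given. For each of 32250 isoform clusters the authors deposited, per library, an expected count (estimated reads, not always whole). A second deposited column is the FPKM that the authors computed from it. No genome build or filter is stated in the sources used.

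Estimated counts were rounded, and clusters reaching 10 reads in total in these libraries were tested with the edgeR 4.0.16 quasi-likelihood test (R 4.3.3, TMM, Benjamini-Hochberg, threshold 0.05), with the replicate number as a block. Alternatives were no block, DESeq2 1.42.0, limma 3.58.1 with trend, other normalization, filters and pseudocounts, 15 libraries, and leaving out libraries. The script was tested on simulated data in which all organs shared the same number effect. Such data cannot show how the block behaves under number 3. Ratios within a number used normalized CPM + 0.5. The numbers were taken to pair the libraries because deviations from the organ means correlated above 0.1 for all 3 numbers (0.755, 0.721 and 0.330), although the value for number 3 is partly fixed by the others. Mantle libraries were not part of the 15, and no fit that included them was run, so how they would change the calls is not known.

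The clusters named were to be, per direction, the most abundant called cluster (at least 2-fold, no overlap) and the most abundant on/off cluster. As the fit on 6 libraries called none, the first part was applied to the 15-library fit after its values were seen. The comparison and its rules were chosen with earlier results of these data known. Siphon, intestine and foot also entered the number effect and the spread of the 15-library fit. All other tissues entered the levels, correlations and on/off counts of organ pairs.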

Additional observations from a re-analysis of the deposited data

How the results depend on the processing

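The 0 clusters called with the replicate block on 6 libraries became 14 without the block (5 higher in the gill, 9 in the labial palp), 3277 with DESeq2 (1888 and 1389), 1347 with DESeq2 without the block (734 and 613), 2813 with DESeq2 without replicate 3 (1761 and 1052), 3 with limma on log2(FPKM + 0.1) (2 and 1), 28 with limma on log2(FPKM + 1) (11 and 17) and 533 on 15 libraries (299 and 234). It stayed at 0 with RLE size factors, with either other filter, without replicate 1, 2 or 3, and without the block with any 1 library left out. Unadjusted p under 0.05 numbered 1645 to 4281 in these fits. DESeq2 without the block or without replicate 3, and all alternatives to the 15-library fit, were chosen after seeing the data.

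The 533 clusters of the 15-library fit were 536 with number 3 divided, 521 with RLE size factors, 219 without the block (116 and 103) and 121 without gill and labial palp replicate 3 (66 and 55). With 1 of the 6 libraries left out they were 221 to 287, with 106 to 156 higher in the gill and 108 to 146 higher in the labial palp. DESeq2 called 7441 clusters by replicate number (likelihood ratio test), where edgeR called 0 and listed 5681 at an unadjusted p under 0.05. The causes were not tested.

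The 16 clusters on in the gill were 25 with at least 5 reads, 9 with at least 20, 27 with at most 1 read in the labial palp, and 26 to 55 with 1 library left out. The 10 on in the labial palp were 16, 6, 14 and 16 to 40. Fewer libraries make the rule easier to meet. The correlation of the mean profiles, 0.908, was 0.783 over the 14773 clusters with at least 600 reads and 0.840 on log2(FPKM + 0.1). Each named cluster kept its direction in every alternative that gave it an adjusted p, 18 for c3446 and 19 for each of the others. Their adjusted p ranged from 5.12e-90 to 0.806 for c11158, 1.15e-53 to 0.806 for c40667, 4.83e-17 to 0.806 for c64246 and 0.000994 to 0.904 for c3446.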
